A study of Mus musculus with 9 samples.

Results

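Leukocyte G protein-coupled receptors were examined as a set of 9 genes named by symbol: Gpr141, Gpr18, Gpr65, Gpr84, Gpr183, Adora3, P2ry6, P2ry13 and P2ry14. Of these, 7 were found by symbol among the 1710 genes of the deposited table and all 7 passed a low-count filter that kept 1583 genes, while Gpr183 and P2ry13 were not analysed here. The tissue was wild-type mouse brain labelled "brain ctx", harvested at the centre of infection on day 10 after the injection. There were 3 libraries in each of the groups PBS (a buffered salt solution), LowDose and HighDose. The labels give the same treatment protocol, a stereotaxic viral injection, for all 9 libraries, and the virus named in the title is AAV (adeno-associated virus), used to carry genes into cells. Strain, age, sex and the viral amount of each dose were not used here. Nothing in the labels says whether the libraries of a group came from separate animals, so p-values measure only the spread between these libraries, which may be technical.

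G protein-coupled receptors span the membrane with a bundle of helices and pass a signal from outside the cell to a G protein inside. Leukocytes and microglia, the resident macrophages of the brain, use them to read small molecules released by damaged or active cells: adenosine, nucleotides such as UDP, nucleotide sugars, fatty acids, oxysterols and protons. Gpr141 is an orphan receptor, and Gpr18 is a receptor of lymphocytes and myeloid cells whose proposed ligands are lipids. Gpr65 senses acid, Gpr84 binds medium-chain fatty acids, Adora3 binds adenosine, P2ry6 binds UDP and P2ry14 binds UDP-glucose and related sugars.

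Library totals lay between 18344070 and 23725634 counts, so that 3 counts, taken as the detection floor, correspond to 0.126 to 0.164 CPM (counts for each 1000000 of the library total). Each of the 1710 listed genes differed at least 2-fold in mean FPKM (fragments per kilobase of transcript, scaled to a fixed library size) between at least 1 pair of groups, and the listed genes held 1.34% to 1.61% of the counts in the PBS and LowDose libraries against 3.90%, 5.21% and 6.04% in HighDose replicates 1 to 3. Tests of HighDose therefore repeat part of the choice of the listed genes, and most listed genes passed them: 86.3% of the 1583 tested genes were higher in HighDose than in PBS and 10.7% were lower (edgeR quasi-likelihood test, Benjamini-Hochberg adjusted p under 0.05). The 6 fixed marker genes of neurons, cortical ones among them, were not analysed here, and the 6 fixed striatal genes summed to 641 to 964 CPM in PBS, so the labelled region could not be checked against cortical markers.

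Relative to library totals, all 7 receptors were higher in HighDose than in PBS, though Adora3, P2ry6 and P2ry14 had log2 changes below 0 and Gpr84 did not pass when libraries were scaled within the listed genes. In each of the 7 every HighDose library lay above every PBS library in CPM, which was so for 85.8% of tested genes. The changes fell into a wide range, from 2.0-fold for P2ry6 to at least 123-fold for Gpr141. Against LowDose all 7 were higher as well, beside 88.1% of tested genes higher and 7.08% lower, and HighDose and LowDose libraries did not overlap in any of them, as in the 86.5% of tested genes whose HighDose libraries were all higher. Gpr141, Gpr18 and Gpr65 passed the low-count filter only through their HighDose libraries and so had to differ. Of the other 4 receptors, Gpr84 with a log2 change of 2.59 lay above the median of 1.90 over all tested genes, and Adora3, P2ry14 and P2ry6 lay below it. In bulk tissue, more cells of a type and more RNA per cell cannot be told apart.

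**Figure D1:**
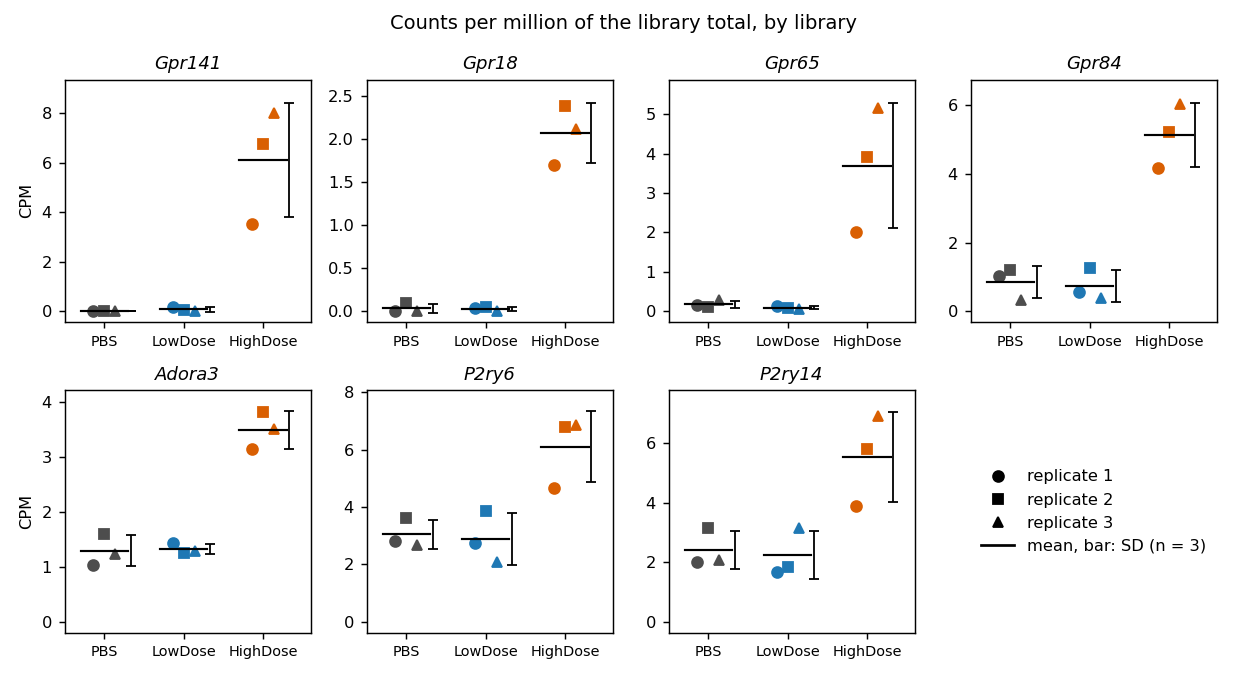
CPM of the 7 receptors (y axis, linear, own scale in each panel) in the 3 groups (x axis), with 1 symbol per library, a line at the mean and a bar of 1 SD (n = 3). In each panel the 3 HighDose libraries lie above the 6 others, and HighDose replicate 1 is the lowest of the 3.

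The receptors at or near 0 without the high dose are shown first, with the 250 bases before their RefSeq start sites, since these genes went from almost no reads to a clear signal. Positions are on GRCm38.p6, the sequence is that of the gene's strand from 5′ to 3′, and Adora3, which already had reads in PBS, is given for comparison. Capitals mark matches, on either strand, to an interferon-stimulated response element (ISRE, searched as GAAA, any 2 bases, GAAA) or to the core of the PU.1 site (GAGGAA), PU.1 being a myeloid and B cell transcription factor.
Gpr141 (chr13:19824258-19824507, minus strand): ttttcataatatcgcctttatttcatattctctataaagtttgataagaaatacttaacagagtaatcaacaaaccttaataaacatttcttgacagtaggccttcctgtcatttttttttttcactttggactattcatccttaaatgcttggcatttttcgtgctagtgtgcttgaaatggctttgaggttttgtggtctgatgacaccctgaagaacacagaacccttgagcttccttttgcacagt
Gpr18 (chr14:121915889-121916138, minus strand): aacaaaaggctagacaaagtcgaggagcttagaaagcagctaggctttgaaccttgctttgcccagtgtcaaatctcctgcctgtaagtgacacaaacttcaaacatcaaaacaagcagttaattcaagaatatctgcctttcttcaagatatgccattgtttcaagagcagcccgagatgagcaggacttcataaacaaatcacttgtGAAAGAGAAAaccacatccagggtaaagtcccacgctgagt
Gpr65 (chr12:98268385-98268634, plus strand): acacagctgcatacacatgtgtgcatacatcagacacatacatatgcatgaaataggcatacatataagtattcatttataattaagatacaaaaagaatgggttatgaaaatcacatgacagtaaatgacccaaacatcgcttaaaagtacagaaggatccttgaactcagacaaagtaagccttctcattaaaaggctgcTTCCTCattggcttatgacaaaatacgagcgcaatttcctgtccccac
Adora3 (chr3:105904171-105904420, plus strand): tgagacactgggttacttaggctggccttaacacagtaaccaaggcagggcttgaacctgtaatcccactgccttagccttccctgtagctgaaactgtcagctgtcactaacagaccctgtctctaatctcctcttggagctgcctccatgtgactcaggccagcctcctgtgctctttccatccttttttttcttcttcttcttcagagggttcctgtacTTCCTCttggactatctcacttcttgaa

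The ISRE letters were found once among the 6 receptors with a promoter sequence, in Gpr18 at bases -41 to -32 before the start, and 3.46% of the 27025 genes with such a window hold them. The PU.1 core was found in Gpr65 (-48 to -43), in Adora3 (-28 to -23) and in all 4 windows of P2ry14, and 25.9% of genes hold it in at least 1 window. Windows 2 and 3 of P2ry14 overlap and share 1 match, and a gene with more windows has more room for one. A GAS letter pattern (TTC, any 3 bases, GAA, a STAT factor site) and the NF-kB consensus, each also searched on both strands, were found in 0 of the 6, against 8.13% and 8.23% of all genes. The GAS, ISRE, PU.1 and NF-kB patterns can overlap one another, were chosen after the sequences were seen, and describe letters in these windows only.

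Gpr141 had 0 counts in each PBS library. It had 4, 1 and 0 counts in LowDose replicates 1 to 3, and 81, 141 and 185 counts in HighDose replicates 1 to 3, or 3.54, 6.745 and 8.02 CPM. All HighDose libraries stood far above the 6 others, which held 5 counts in all. The group mean in HighDose was 6.10 ± 2.30 CPM (SD, n = 3), at least 123-fold higher than in PBS, whose summed count of 0 was replaced by the floor of 3. The test against PBS had adjusted p = 5.11e-14 (edgeR), and against LowDose the ratio of summed counts was 78.8 (95% counting interval 33.5 to 244), with adjusted p = 7.15e-13. Of the 5 LowDose counts 4 were in replicate 1, and without that library the fitted log2 change against LowDose went from 6.21 to 7.66. Intervals of this kind and floors cover counting error only. Gpr141, Gpr18 and Gpr65 passed the low-count filter only through HighDose, so their p-values repeat that choice.

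Gpr18 had 2 counts in PBS, both in replicate 2, and 2 in LowDose, 1 each in replicates 1 and 2. HighDose held 39, 50 and 49 counts, or 1.71, 2.39 and 2.12 CPM, and these 3 libraries lay close together. The ratio to PBS was 62.6 (95% counting interval 17.0 to 522), with a fitted log2 change of 5.74 ± 0.76 (SE) and adjusted p = 5.51e-09 (edgeR). The fitted value moved to 8.48 without PBS replicate 2, which leaves PBS at 0 counts.

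Gpr65, the acid sensor, was low but present in PBS, with 3, 2 and 6 counts. LowDose had 3, 2 and 1 counts and HighDose 46, 82 and 119, the last being 2.01, 3.92 and 5.16 CPM. HighDose replicate 1 held less than the other two, yet was still 7.27 times the highest PBS library. The log2 change against PBS was 4.31 ± 0.53 (SE, 95% interval 3.24 to 5.38, adjusted p = 1.13e-09), and against LowDose 5.24 ± 0.58 (adjusted p = 7.04e-11, edgeR).

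Gpr84, the fatty acid receptor, was measurable in every library. PBS replicates 1 to 3 stood at 1.04, 1.21 and 0.323 CPM, LowDose at 0.548, 1.26 and 0.374 CPM, and HighDose at 4.16, 5.21 and 6.02 CPM. The third replicate was the lowest of its group in PBS and in LowDose, and the groups with and without the high dose did not overlap. Relative to library totals Gpr84 rose against PBS by 2.59 ± 0.42 on the log2 scale (SE, 95% interval 1.74 to 3.43), or 6.01-fold, with adjusted p = 4.63e-07 (edgeR). Against PBS it did not pass when scaled within the listed genes (adjusted p = 0.0812 and 0.0752, edgeR). Against LowDose it passed narrowly under those scalings, at 1.05 (adjusted p = 0.0468) and 1.09 (0.0407, edgeR).

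The receptors of adenosine and nucleotides had higher FPKM in PBS and smaller fitted changes. Adora3 stood at 1.04, 1.60 and 1.25 CPM in PBS, 1.43, 1.26 and 1.28 CPM in LowDose and 3.15, 3.83 and 3.51 CPM in HighDose. PBS and LowDose overlapped fully and HighDose was tight, with its highest library 1.21 times its lowest. The log2 change against PBS was 1.43 ± 0.36 (SE, adjusted p = 0.000359, edgeR), or below 0 when scaled within the listed genes, while mean FPKM gave 1.13, so counts and length-scaled values differ for this gene. Adora3 shares exons with Tmigd3 on the same strand and its count in LowDose replicate 1 was not whole (33.91), so reads could be split between both genes and the values are uncertain.

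P2ry6, the UDP receptor, had 2.84, 3.63 and 2.67 CPM in PBS, 2.74, 3.87 and 2.08 CPM in LowDose, and 4.68, 6.79 and 6.85 CPM in HighDose. Its lowest HighDose library was 1.29 times the highest PBS library. Relative to library totals P2ry6 rose 2.0-fold (log2 1.0 ± 0.31, 95% interval 0.38 to 1.62, adjusted p = 0.00241, edgeR), and it was lower when scaled within the listed genes. Its mean FPKM differed by 1.0031 on the log2 scale between HighDose and PBS and by 1.0755 between HighDose and LowDose, close to the value of 1 that every listed gene exceeded. With the adjustment taken over all 55450 annotated genes, chosen after seeing the data, adjusted p was 0.0846 for P2ry6 and the other 6 receptors kept their call.

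P2ry14, the receptor of UDP-glucose, had 2.02, 3.15 and 2.075 CPM in PBS, 1.69, 1.84 and 3.15 CPM in LowDose and 3.89, 5.79 and 6.89 CPM in HighDose. A single library was high in PBS (replicate 2) and in LowDose (replicate 3), and both were below every HighDose library. The lowest HighDose library was 1.24 times the highest PBS library, the smallest such margin of the 7. Relative to library totals P2ry14 rose by 1.19 ± 0.33 on the log2 scale (SE, 95% interval 0.53 to 1.86, adjusted p = 0.000964, edgeR), or 2.28-fold, with values below 0 when scaled within the listed genes.

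**Figure D2:**
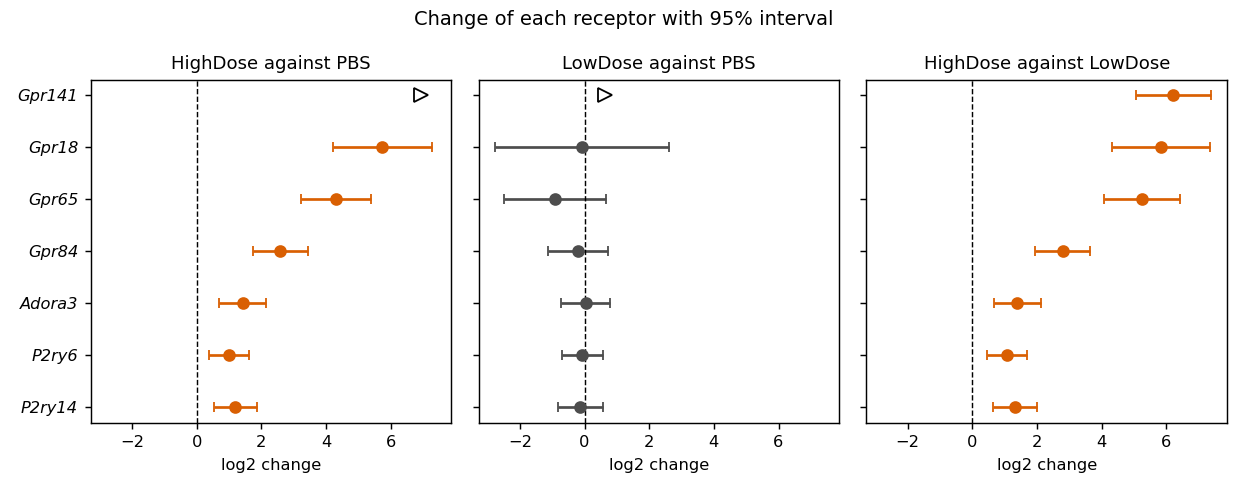
Fitted log2 change of each receptor relative to library totals (x axis) in the 3 comparisons, with 95% intervals. Orange points passed the test, grey points did not, and open triangles are lower bounds for Gpr141 against PBS (0 PBS counts, set at 3 over the group). All points lie right of 0 in both HighDose panels, where Adora3, P2ry6 and P2ry14 fall below 0 under scaling within the listed genes, and the points of LowDose against PBS are grey.

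No receptor passed the test between LowDose and PBS: 0 of 7 passed in edgeR, 0 in DESeq2, and 1, Gpr141, had an unadjusted p under 0.05 (0.0217, adjusted 0.263). In this comparison 2.59% of tested genes were called, 0.442% as higher and 2.15% as lower, and 11.7% had an unadjusted p under 0.05. The LowDose and PBS libraries overlapped in all 7 receptors, while 6.63% of tested genes had every LowDose library higher and 13.1% every one lower. The best measured receptors had log2 changes of -0.07 for P2ry6 (95% interval -0.70 to 0.56), -0.13 for P2ry14 (-0.82 to 0.56), 0.03 for Adora3 (-0.73 to 0.79) and -0.21 for Gpr84 (-1.14 to 0.72). These intervals reflect counting error and the spread between 3 libraries a group. For Gpr18 (-2.77 to 2.6) and Gpr65 (-2.50 to 0.65) the intervals are wider. Gpr141 had 5 LowDose counts against 0 in PBS, 4 of them in LowDose replicate 1.

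Length-scaled levels gave the order of the receptors. In PBS the mean FPKM was 1.57 ± 0.267 (SD, n = 3) for P2ry6, 1.28 ± 0.353 for P2ry14, 0.72 ± 0.195 for Adora3, 0.497 ± 0.27 for Gpr84, 0.0867 ± 0.0404 for Gpr65 and 0.02 ± 0.0346 for Gpr18, with Gpr141 at 0. Neighbours in this order overlapped except P2ry14 with Adora3 and Gpr84 with Gpr65, and LowDose showed the same separations. In HighDose P2ry14 (3.19 ± 0.876), P2ry6 (3.14 ± 0.632) and Gpr84 (2.97 ± 0.542) were at the top, followed by Gpr141 (2.17 ± 0.915), Gpr65 (1.79 ± 0.766), Adora3 (1.58 ± 0.085) and Gpr18 (1.39 ± 0.232). Every pair of neighbours overlapped there.

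The summed FPKM of the 7 receptors was 4.17 ± 1.01 in PBS, 3.93 ± 0.516 in LowDose and 16.2 ± 3.77 in HighDose (SD, n = 3). P2ry6 and P2ry14 made up 38.0% ± 2.93 and 30.7% ± 3.37 of the PBS sum and 19.5% ± 1.27 and 19.5% ± 1.01 of the HighDose sum. Gpr141, Gpr65 and Gpr18 went from 0%, 2.30% ± 1.49 and 0.378% ± 0.655 of the sum in PBS to 12.9% ± 2.75, 10.6% ± 2.41 and 8.69% ± 1.23 in HighDose. Gpr84 went from 11.4% ± 5.08 to 18.5% ± 1.23 and Adora3 from 17.2% ± 1.16 to 10.2% ± 3.05.

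**Figure D3:**
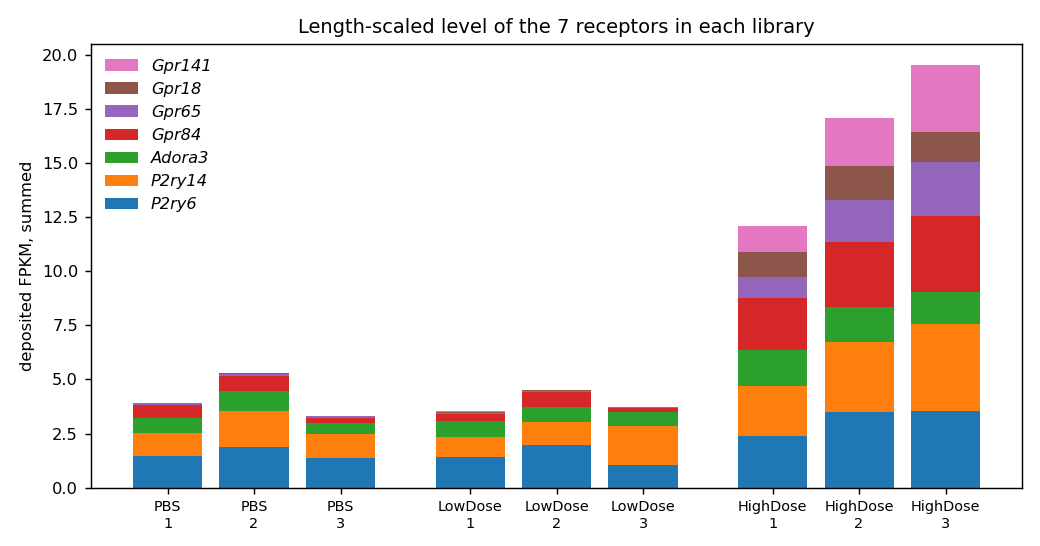
Deposited FPKM of the 7 receptors stacked for each library (y axis, linear, from 0), 1 bar per library. P2ry6, P2ry14 and Adora3 fill most of the PBS and LowDose bars, and Gpr141, Gpr18 and Gpr65 are clear segments in the HighDose bars, from 0% to 2.30% of the mean PBS sum each.

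Ratios between 2 receptors in the same library do not depend on how libraries are scaled. P2ry6 had the highest PBS level and the smallest rise of the 7 in HighDose. Mean ratios to it were thus bound to be higher in HighDose. Gpr141, Gpr18 and Gpr65 passed the low-count filter only through HighDose, so the size and separation of their ratios follow in part from that choice. The ratios are a description, and their p-values repeat these choices. Relative to P2ry6, Gpr84 stood at 0.308 ± 0.148 in PBS and 0.952 ± 0.0754 in HighDose, 3.09 times higher, without overlap. Gpr65 went from 0.0588 ± 0.0343 to 0.551 ± 0.153 of the P2ry6 level and Gpr18 from 0.0107 ± 0.0185 to 0.445 ± 0.0367, also without overlap, while Gpr141 went from 0 to 0.671 ± 0.183. P2ry14 moved less, from 0.811 ± 0.0923 to 1.01 ± 0.121, and Adora3 overlapped, at 0.455 ± 0.0591 and 0.521 ± 0.14 (exact permutation test, two-sided, p = 0.6). For the ratios without overlap the exact permutation p was 0.1, the smallest that 3 against 3 libraries allow, and 0.191 after adjustment over the 21 ratio comparisons made.

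The scaling decided the direction of the 3 receptors that rose least. Unless FPKM or scaling within the listed genes is named, CPM, log2 changes and calls here are relative to library totals. When libraries were scaled within the listed genes, by TMM or by DESeq2 size factors, the median log2 change of all tested genes between HighDose and PBS moved from 1.90 to 0.19 and 0.22, and the calls over all tested genes from 1366 higher and 169 lower to 600 and 464, and to 605 and 455. Gpr141, Gpr18 and Gpr65, which passed the filter only through HighDose and so had to differ, were higher under both. Gpr84 kept its sign without passing, at 0.89 (adjusted p = 0.0812) and 0.91 (0.0752, edgeR). Adora3, P2ry14 and P2ry6 turned to values below 0, and P2ry6 passed as lower at -0.70 (adjusted p = 0.0149) and -0.68 (0.0184, edgeR).

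**Figure D4:**
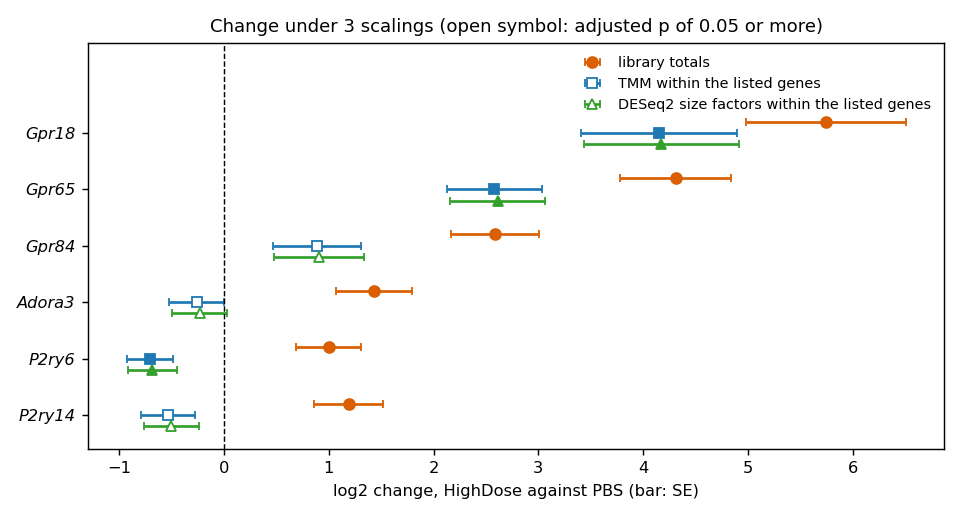
Log2 change between HighDose and PBS (x axis, bar: SE) of 6 receptors under 3 scalings, with open symbols where the adjusted p was 0.05 or more. Gpr141 is left out because it had 0 PBS counts. Gpr18, Gpr65 and Gpr84 stay right of 0, and Adora3, P2ry6 and P2ry14 lie left of 0 when scaled within the listed genes.

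Within HighDose, each of the 7 receptors was lowest in CPM in replicate 1. The listed genes as a whole also held their smallest share of counts there (3.90%, against 5.21% and 6.04%). In FPKM, Adora3 was instead highest in replicate 1, at 1.64 against 1.61 and 1.48. By CPM the highest library was 2.56 times the lowest for Gpr65, 2.26 times for Gpr141 and 1.77 times for P2ry14. It was 1.46 times for P2ry6, 1.45 for Gpr84, 1.40 for Gpr18 and 1.21 for Adora3. Summed markers of myeloid cells, monocytes, dendritic cells, T cells and B cells were higher in HighDose than in PBS and lowest within HighDose in replicate 1. The same held for the 1 analysed astrocyte marker, at 374, 453 and 534 CPM in HighDose replicates 1 to 3 against 113 to 146 in PBS. It also held for the 1 analysed neutrophil marker (11.8, 16.4 and 19.0 CPM against 4.47 to 6.25), so the pattern was not particular to leukocyte lists. Homeostatic microglia sums were also lowest in HighDose replicate 1 (136, 140 and 144 CPM) but overlapped between the 2 groups. Oligodendrocyte and striatal sums were lower in HighDose and highest within it in replicate 1 (1090 and 263 CPM). All 8 analysed of 11 T cell markers were higher in HighDose than in PBS, and so were 7 of 7 markers of myeloid cells relative to library totals (3 higher and 4 lower when scaled within the listed genes by either method). These counts stand beside the 86.3% of all tested genes called higher, and the median log2 change was 5.52 for the T cell and 1.15 for the myeloid markers, beside 1.90 over all tested genes. Their summed levels were 165, 217 and 248 CPM (myeloid) and 14.5, 26.6 and 28.8 CPM (T cell) in HighDose replicates 1 to 3, against 58.9 to 73.5 and 0.484 to 0.968 CPM in PBS, where Cd3d was at 0. Of 5 analysed markers of monocytes and border macrophages 4 rose and 1, Cd163, fell, and their sum went from 2.52 to 3.0 CPM in PBS to 111 to 197 CPM. Of 4 tested dendritic cell markers 4 rose (3 when scaled within the listed genes), with Xcr1 at 0 in PBS, and of 4 tested B cell markers 3 rose. The sum of 5 homeostatic microglia markers was 116 to 147 CPM in PBS and 136 to 144 CPM in HighDose, with 2 of them higher and 3 lower (0 and 5 when scaled within the listed genes). Ptprc (CD45), carried by leukocytes of all kinds, rose by 4.19 ± 0.28 on the log2 scale (SE, adjusted p = 6.12e-18, edgeR) and Aif1, a microglia and macrophage gene, by 2.27 ± 0.28 (1.24e-09), while Cd68, Itgam, Tyrobp and Cd14 were the 4 myeloid markers that were lower when scaled within the listed genes. The 3 analysed oligodendrocyte markers fell in HighDose (1660 to 2180 CPM in PBS, 797 to 1090 in HighDose), and 2 of them fell in LowDose (0 when scaled within the listed genes). Of 4 tested dendritic cell markers 1 was higher in LowDose than in PBS (0 when scaled within the listed genes). LowDose sums lay above PBS for dendritic cells (1.6 to 2.83 against 0.533 to 1.2 CPM) and T cells (1.07 to 1.43 against 0.484 to 0.968). They lay below PBS for B cells (0.337 to 0.674 against 0.763 to 1.11 CPM), with 0 T cell and 0 B cell markers called. Gfap, an astrocyte gene, rose by 1.85 ± 0.23 in HighDose (adjusted p = 1.27e-09, edgeR), without passing when scaled within the listed genes. The part of these cells in the receptor changes was not tested.

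Relatives of the receptors moved both ways in HighDose. Of 19 fixed relatives among purine and acid receptors, 8 were tested, of which 5 rose and 3 fell against PBS (3 and 4 when scaled within the listed genes), with a median log2 change of 1.49 beside 1.90 over all tested genes. The highest were Gpr171, an orphan receptor of lymphocytes (1 count in PBS and 372 in HighDose, ratio 338, 95% counting interval 60.2 to 13400), P2ry10, a lysophospholipid receptor of lymphocytes (2 and 413 counts, ratio 187, 51.6 to 1550), and Gpr132, a relative of Gpr65 (2 and 193 counts, ratio 87.6, 23.9 to 729). Those that fell were Adora2a, the adenosine receptor of striatal neurons (log2 -2.49 ± 0.31), Gpr34, a lysophospholipid receptor of microglia (-1.07 ± 0.25, adjusted p = 0.000115), and P2ry12, the ADP receptor of resting microglia (38.3 ± 4.14 to 19.5 ± 2.99 CPM, log2 -0.97 ± 0.22, adjusted p = 9.04e-05, edgeR). Adora2a is also 1 of the 6 fixed striatal genes, all of which fell in HighDose. All 6 were also lower in LowDose than in PBS relative to library totals (median log2 change -1.18, summed level 235 to 540 CPM), and 0 passed when scaled within the listed genes. Of 35 other leukocyte receptors 12 were tested and 11 rose, beside 86.3% of all tested genes called higher. Their median log2 change was 3.06, and 8 were higher and 1 lower when scaled within the listed genes. The complement receptor C3ar1 was the one with the most HighDose counts (2.66 ± 0.705 to 18.7 ± 5.31 CPM, log2 2.81 ± 0.28, adjusted p = 4.87e-12), chosen after its values were seen. Ptgir, a prostacyclin receptor, did not pass (0.78 ± 0.61, adjusted p = 0.205). Gpr132 belongs to this list and to the purine and acid list, and is counted as higher in each.

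Enzymes that make or remove ligands were tested in 4 of 17 cases, with 3 higher and 1 lower (2 and 1 when scaled within the listed genes). Ch25h, which makes an oxysterol on the way to the ligand of Gpr183, stood at 0.284 ± 0.0942 CPM in PBS, 0.431 ± 0.094 in LowDose and 7.12 ± 1.25 in HighDose (log2 4.63 ± 0.42 against PBS, adjusted p = 1.91e-13, edgeR). Acod1, the itaconate-making enzyme of activated macrophages, rose by 5.95 ± 0.45 and Ada, which breaks down adenosine, by 2.05 ± 0.48 on that scale, Ada without passing when scaled within the listed genes. Entpd2, an ATP-cleaving enzyme of the cell surface, fell by 1.15 on the log2 scale (adjusted p = 0.000205). Of 32 genes of G protein signalling 6 were tested and 6 rose relative to library totals, beside 86.3% of all tested genes, with a median of 1.31 below the 1.90 over all tested genes, while 2 were higher and 3 lower when scaled within the listed genes. The values ran from 0.99 ± 0.30 for Plcb2, a phospholipase of leukocytes that was lower under those scalings, to 4.06 ± 0.49 for Rgs1, a brake on G protein signals in lymphocytes. In LowDose 1 of the tested genes in these 4 lists passed, Adora2a (-1.79 ± 0.30, adjusted p = 0.000269, edgeR), and 0 passed when scaled within the listed genes.

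P2ry14 lies in a row of related receptors on chromosome 3, and its neighbours differed in direction. In GENCODE M21 (mm10) P2ry14 spans 59113855 to 59153618 on the minus strand, within Med12l, which runs on the opposite strand without shared exons. Counted along the chromosome from its start site, Gpr171 starts at -51.8 kb and P2ry12 at 109.3 kb, with P2ry13, not analysed here, between P2ry14 and P2ry12. The FPKM ratio of P2ry14 to P2ry12 was 0.0416, 0.0635 and 0.0506 in PBS replicates 1 to 3, 0.04, 0.0584 and 0.122 in LowDose and 0.196, 0.299 and 0.481 in HighDose. Each HighDose library was above the 6 others, with a mean 6.27 times that of PBS. The exact permutation p was 0.1 (two-sided, the smallest possible), and 0.191 after adjustment over the 21 ratio comparisons. P2ry14 was called higher and P2ry12 lower relative to library totals, so the mean ratio was bound to rise and this p-value repeats that.

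The other receptors are spread over the genome. Gpr141 lies on chromosome 13 (19749682 to 19824257, minus strand), Gpr18 on chromosome 14 (121911253 to 121915781, minus), Gpr65 on chromosome 12 (98268635 to 98276644, plus), Gpr84 on chromosome 15 (103308235 to 103310612, minus), Adora3 on chromosome 3 (105870858 to 105908926, plus) and P2ry6 on chromosome 7 (100937630 to 100974649, minus). Gpr141, Gpr18, Gpr65, Gpr84 and P2ry6 carry their whole coding sequence in 1 exon, 915 to 1188 bases long, with the other exons noncoding. Gpr18 lies within Ubac2 on the opposite strand without shared exons. Gpr65 and Gpr84 share exon bases with the antisense genes Gm47566 and Gm49482, and no source used here says whether counting used the strand, so reads of these pairs cannot be told apart.

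By correlation of log2(CPM + 0.5) over the 9 libraries, among 1248 other named genes with a mean of at least 1 CPM, the pattern closest to Gpr141 was that of Sirpb1c (Pearson r = 0.9986), to Gpr18 that of Gimap4 (0.9985), to Gpr65 that of Usp25 (0.9988), to Gpr84 that of Ikbke (0.9838), to Adora3 that of Gsdmd (0.9909), to P2ry6 that of Il1a (0.9705) and to P2ry14 that of Stat4 (0.977). The next closest were Trim56, Rnf213, Setdb2, Il1a, Il18bp, C1rl and Wdfy4 in the same order. The libraries fall into HighDose and the rest, so these values mostly describe that split, and they are given without a test. Il1a, the cytokine interleukin 1 alpha, stood near both Gpr84 and P2ry6, with 0.729 ± 0.162 CPM in PBS, 0.676 ± 0.271 in LowDose and 2.72 ± 0.691 in HighDose.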

How the data were processed

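Estimated counts and FPKM per gene and library were deposited by the authors, on mouse build mm10 per the submitters' processing notes, which name edgeR and DESeq2 without a role. For the aligner, the counting tool and the choice of the 1710 genes nothing is given in the sources used here. Per library 7.66% to 14.0% of the deposited counts were not whole (tolerance 0.001), and they were rounded. Library totals were recovered as the median of count over FPKM and length, using 23 to 68 single-transcript genes (GENCODE M21) of 600 bases or more with 100 counts and an FPKM of 5 or more. Genes kept by filterByExpr (minimum count 10) were tested in 1 edgeR 4.0.16 quasi-likelihood fit of the 3 groups (R 4.3.3) with Benjamini-Hochberg adjustment over the 1583 tested genes and a threshold of 0.05. SEs were taken from the F statistic and are approximate near 0 counts. The members and lists were chosen with earlier results of these data known. The text names the members, the 2 genes closest in pattern to each, and over the fixed related lists the 3 highest and 3 lowest called in HighDose against PBS, with P2ry12 and Ch25h. C3ar1, Ptgir, Acod1, Ada, Plcb2 and Rgs1, and the markers Ptprc, Aif1, Cd68, Itgam, Tyrobp, Cd14, Cd163, Gfap, Cd3d and Xcr1, fall outside that rule and were chosen after their values were seen. The effect of scaling on the lists was also looked up after seeing the data. Alternatives were 2 scalings within the listed genes, other filters, DESeq2 1.42.0, fits of 2 groups, a replicate block and leaving out each library. The deviations of same-numbered libraries, the only basis for pairing, had r = 0.246, 0.165 and 0.137 between PBS and LowDose. They had 0.069, -0.006 and 0.151 between PBS and HighDose, and 0.183, 0.014 and 0.083 between LowDose and HighDose. The 18 pairs with different numbers ran from -0.18 to 0.131, which overlaps these values in part. Of the 9 same-numbered pairs 5 had r over 0.1, against 1 of those 18. The main fit did not take the replicate number into account. In simulated counts for HighDose against PBS (1234 genes) the fit called 82% and 58% of genes changed by 1 and -1 on the log2 scale and 0.58% of unchanged ones. The simulation used PBS means and 1 common spread, and changed 50 genes per step, equally up and down, with expected PBS counts of 10 or more. Most listed genes rose in the data, and Gpr141, Gpr18 and Gpr65 had fewer PBS counts, so these rates do not describe the receptor tests. Promoter sequences are RefSeq's on GRCm38.p6, and 6 of the 7 receptors matched by symbol. Python 3.11.15, pandas 2.3.3, scipy 1.17.1 and matplotlib 3.10.9 were used.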

Additional observations from a re-analysis of the deposited data

How the results depend on the processing

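Under TMM and DESeq2 size factors within the listed genes, 3 and 3 of the 7 receptors were higher in HighDose than in PBS and 1 and 1 lower, and against LowDose 4 and 4 were higher and 1 and 1 lower. In the order TMM and size factors, the log2 change against PBS turned to -0.26 and -0.23 for Adora3, -0.53 and -0.50 for P2ry14 and -0.70 and -0.68 for P2ry6, and against LowDose to -0.34 and -0.30, -0.44 and -0.40, and -0.68 and -0.64. These scalings take most listed genes as unchanged by construction, and against LowDose they gave 565 and 576 genes higher and 461 and 445 lower, from 1394 and 112. No filter, the stricter filter of 1 CPM in 3 libraries, DESeq2, fits of 2 groups and leaving out each library kept 7, 0 and 7 receptors higher in the 3 comparisons and 0 lower. In the fit of LowDose and PBS alone, 3 of the 7 did not reach the low-count filter and have no value. The replicate block changed no call of a receptor (7, 0 and 7), while the calls over all genes in LowDose against PBS went from 7 higher and 34 lower to 12 and 50 in the blocked fit. Leaving out 1 library moved those counts to 5 to 22 and 18 to 57, without LowDose replicate 1 giving the highest values, and the 2 scalings gave 3 and 3. Adjusted over all annotated genes, 6 of 7 receptors were called against PBS, and over all genes 42 were lower in HighDose than in LowDose and 1 higher and 7 lower in LowDose than in PBS. Gpr141, Gpr18 and Gpr65 had 0 to 6 counts a library in PBS and LowDose, which limits what their comparison can show.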
